A study of Mus musculus with 9 samples.

Results

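The 10 Sox transcription factors described here were followed across 3 sorted populations of the mouse mammary gland: Sox4, Sox11 and Sox12 of group C, Sox9 and Sox10 of group E, Sox7, Sox17 and Sox18 of group F, Sox13 of group D and Sox15 of group G. They were found by name, spelled SOX4, SOX7, SOX9, SOX10, SOX11, SOX12, SOX13, SOX15, SOX17 and SOX18 in the table of the array: every probe of the Illumina mouse whole-genome BeadChip whose target was 1 of these 10 genes was taken, which gave 20 of the 45281 probes. A probe was tested where the detection value in the authors' table was above 0.99 on at least 3 of the 9 arrays. That held for 14 of the 20 Sox probes, from 8 of the 10 genes, and for 17712 probes in all. Sox11, with 3 probes, and Sox15, with 1, were detected on no array of any group.

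The cells came from C57BL/6 mice, 10 weeks old and virgin, that carried the allele Lgr5-GFP-IRES-CreERT2, in which GFP is made where the gene Lgr5 is active. All 3 groups are labelled with this genotype: Lgr5+ basal cells, Lgr5- basal cells and luminal cells, the last with the label wild-type for Lgr5 expression. Basal cells form the outer, contractile layer of the ducts, and luminal cells form the inner layer that faces the lumen. Each group had 3 arrays, numbered 1 to 3 after the pool given in the labels. Each array held RNA of sorted cells, and each pool number had 1 array of each group. The p-values reflect how much pools vary. Pools 1 and 2 were on one BeadChip (BeadChip 1) and pool 3 on another (BeadChip 2). A GFP allele reports Lgr5 through the reporter's signal, and Lgr5 RNA itself was also detected on the Lgr5- basal arrays. Its normalised log2 intensity was 9.78, 9.83 and 10.65 on the Lgr5+ basal arrays and 8.24, 8.14 and 8.94 on the Lgr5- basal arrays (difference 1.65, limma adjusted p = 0.0246), and it was not detected on any luminal array (at least 23.6-fold and 7.53-fold lower than in the Lgr5+ and Lgr5- basal groups). Of the labelled cell types, all 10 basal markers were higher in both basal groups and all 9 tested luminal markers were higher in the luminal group. Over all tested genes, 48.4% and 43.8% passed limma's test in Lgr5+ and Lgr5- basal against luminal cells. Oxtr was tested through the basal arrays alone and Epcam through the luminal arrays alone, which built in their direction. The summed basal marker level was 19920 on luminal replicate 2, against 3280 and 3284 on luminal replicates 1 and 3 (linear intensity units). With luminal replicate 2 left out, 8 Sox probes passed limma's test in Lgr5+ and 6 in Lgr5- basal against luminal cells. With all arrays these counts were 9 and 7. The part of this basal marker level in the differences was not tested further. The arrays detected 15235 to 17423 probes each, and the number of arrays limits the precision.

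Sox proteins bind DNA through an HMG box, a domain related to that of Sry that bends the helix by contact with the minor groove at short motifs close to ACAAT, and many of them act with a partner factor on the same enhancer. SoxC proteins are activators of immature neural and mesenchymal cells, and Sox4 is also known as a factor of the TGF-beta response in breast epithelium. SoxE proteins are known from cartilage (Sox9) and from neural crest, glia and melanocytes (Sox10), and in the mammary gland both have been studied as regulators of progenitor cells. SoxF proteins act in endothelium and in lymphatic development, and several Sox proteins bind beta-catenin or compete with Tcf/Lef factors for it. Sox13, of group D, is known from gamma-delta T cells, and Sox15, of group G, from muscle precursors and placenta.

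The upstream sequences of the group C genes are shown because these closely related genes differed among themselves in the arrays, from Sox4, detected on all 9 arrays with higher signal in basal cells, through Sox12, detected on all 9 arrays with no called difference in the fit without a block, to Sox11, detected on none. Each is the 250 bases before the annotated start, from RefSeq on GRCm38.p6, written 5′ to 3′ on the strand of the gene, with capitals for CCAAT (a box bound by the NF-Y complex), ACAAT (the core of Sox motifs) and CTTTG (the core of Tcf/Lef motifs), on either strand, so that CCAAT also appears as ATTGG. Of the 10 genes, 5 were in the table of sequences used. Sox4 lies at chr13:28953700-28953949, Sox11 at chr12:27342719-27342968 and Sox12 at chr2:152398047-152398296, all on the minus strand.
Sox4: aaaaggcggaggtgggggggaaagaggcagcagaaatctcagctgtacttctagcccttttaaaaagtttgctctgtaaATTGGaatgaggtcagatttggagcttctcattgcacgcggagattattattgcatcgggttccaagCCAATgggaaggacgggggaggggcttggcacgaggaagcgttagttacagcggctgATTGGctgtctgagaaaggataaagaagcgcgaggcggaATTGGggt
Sox11: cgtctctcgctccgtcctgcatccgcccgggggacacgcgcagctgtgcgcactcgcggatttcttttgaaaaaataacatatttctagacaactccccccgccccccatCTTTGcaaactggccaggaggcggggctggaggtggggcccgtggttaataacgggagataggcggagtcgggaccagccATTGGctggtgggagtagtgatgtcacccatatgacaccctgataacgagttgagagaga
Sox12: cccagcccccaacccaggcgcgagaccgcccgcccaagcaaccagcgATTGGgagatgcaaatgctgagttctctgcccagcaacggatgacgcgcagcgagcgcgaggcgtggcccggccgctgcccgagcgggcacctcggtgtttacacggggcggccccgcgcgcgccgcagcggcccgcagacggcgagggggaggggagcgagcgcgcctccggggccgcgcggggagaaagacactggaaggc
The Sox4 window held 4 CCAAT boxes. At least 1 was present in 33.8% of the 32851 annotated windows of this length and at least 4 in 0.84%. The Sox11 and Sox12 windows held 1 CCAAT box each, and Sox11 1 CTTTG, which 48.6% of all windows hold. None of the 3 windows held ACAAT, which 27.7% of all windows hold. The share of G and C bases was 50.8% for Sox4, 58.0% for Sox11 and 74.4% for Sox12, against a median of 52.4% over all windows. These matches describe the letters of the windows and not binding.

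Between the Lgr5+ and Lgr5- basal cells, a comparison that asks how Lgr5-expressing cells differ within the basal layer, none of the 14 tested Sox probes passed limma's test at an adjusted p under 0.05. Over all 17712 probes, 171 did, or 0.965%. At an unadjusted p under 0.05, 2 Sox probes passed, the lead probes of Sox4 and Sox9, where the lead probe is the one of a gene with the highest mean over the 9 arrays. The limma adjusted p ran from 0.207 to 0.975 over the 14 probes, and the count was 0 under each of the 20 alternative settings too. The differences ran from -0.39 to 0.62 on the log2 scale. For 3 of the 14 probes (Sox4 and Sox9 lead probes and Sox13) the 3 values of one group did not overlap those of the other, or 21.4%, against 21.6% of all tested probes. All 3 were higher in the Lgr5+ arrays.

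Against the luminal cells, a comparison of the layers of the epithelium, 9 of the 14 probes passed in Lgr5+ basal cells (7 higher, 2 lower, from 6 genes) and 7 in Lgr5- basal cells (5 higher, 2 lower, also from 6 genes). Of all tested probes, 48% passed in the first comparison and 42.6% in the second. The percentages that were higher in basal cells were 22.8% and 20.7%, and those higher in luminal cells 25.2% and 21.8%. The groups did not overlap for 8 of the 14 Sox probes in each comparison, or 57.1%, against 54% and 53.9% of all tested probes. So the layers differed widely, and the Sox probes were called about as often as other probes. Both comparisons share the luminal arrays. These 9 and 7 include the Sox18 probe, the second Sox17 probe and, in Lgr5+ cells, the second Sox7 probe, which were detected on basal arrays alone. Without background correction 7 and 5 Sox probes passed. Without Lgr5+ basal replicate 2, whose endothelial genes were high (given with group F), 7 and 8 Sox probes passed. By their called probes, the members fell into a basal side (Sox4, Sox10, Sox7, Sox17 and Sox18) and a luminal side (Sox9). Sox12 and Sox13 had no called difference in the fit without a block. For Sox17 and Sox18 the calls came from probes tested through the basal arrays alone, so their side was built into the selection. The Sox17 lead probe was called in no comparison. In sorted bulk RNA, fewer cells of a type and less RNA per cell cannot be told apart.

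**Figure D1:**
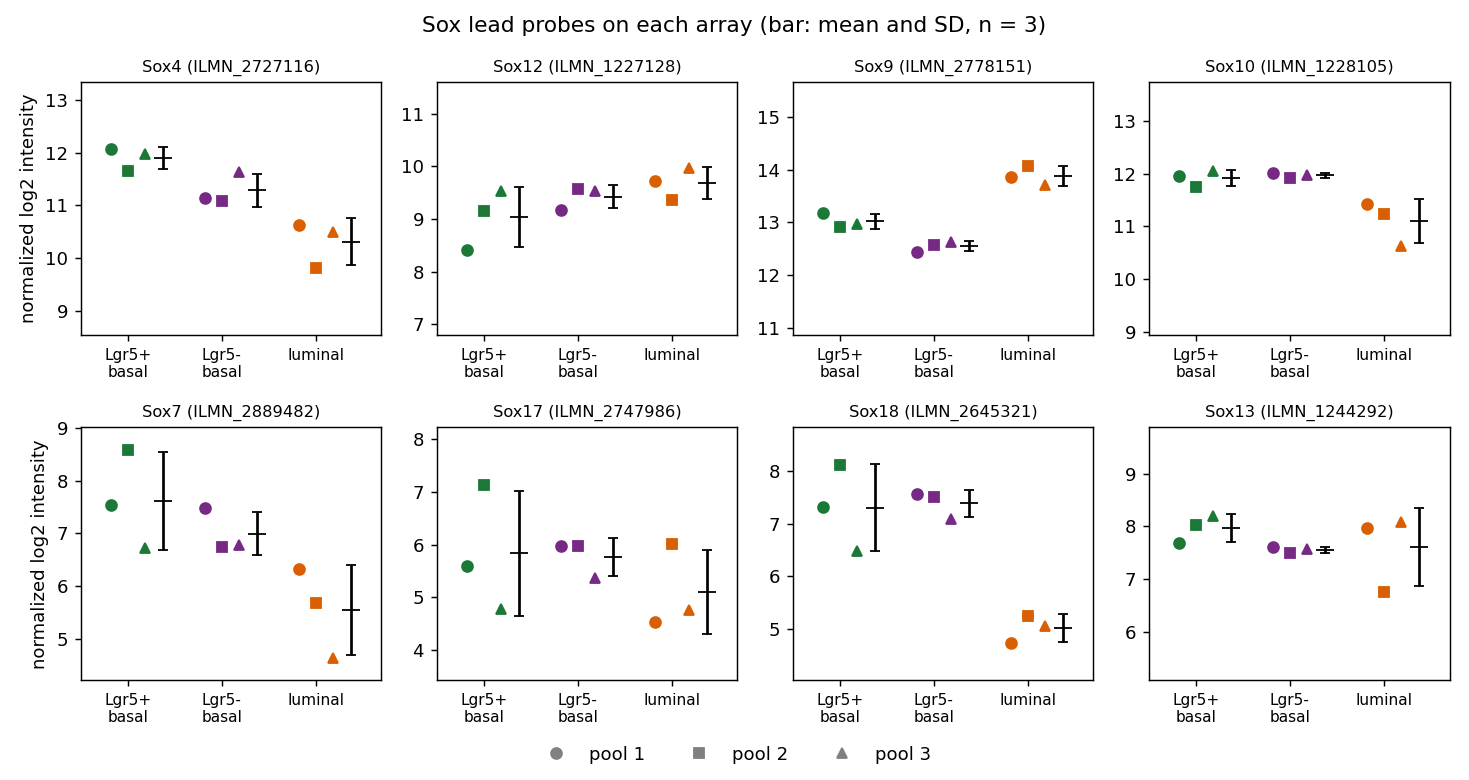
Normalised log2 intensity (vertical axis) of the lead probe of each Sox gene in the Lgr5+ basal, Lgr5- basal and luminal arrays, with 1 point per array, shaped by pool, and a bar for the mean and SD of each group (n = 3). Sox9 is highest in the luminal arrays, and Sox4, Sox10 and Sox18 are higher in both basal groups than in the luminal arrays.

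Sox4, the SoxC activator linked to TGF-beta responses, was measured at 12.06, 11.65 and 11.97 (normalised log2 intensity) on the Lgr5+ basal arrays, at 11.14, 11.08 and 11.63 on the Lgr5- basal arrays and at 10.62, 9.81 and 10.50 on the luminal arrays. Every basal array lay above every luminal array, and every Lgr5+ array above every Lgr5- array, the closest pair being the Lgr5+ array of pool 2 and the Lgr5- array of pool 3. The group means were 11.90 ± 0.21, 11.28 ± 0.31 and 10.31 ± 0.44 (SD, n = 3 each). Sox4 was 3.00-fold higher in Lgr5+ basal than in luminal cells (log2 difference 1.58, SE 0.25, limma adjusted p = 0.000341). It was 1.96-fold higher in Lgr5- basal than in luminal cells (log2 difference 0.97, SE 0.25, limma adjusted p = 0.00862). The step from Lgr5- to Lgr5+ basal cells, 0.61 (95% confidence interval 0.07 to 1.16 before adjustment), did not pass with all probes considered (limma adjusted p = 0.272), and the differences in pools 1, 2 and 3 were 0.92, 0.58 and 0.34. The order of the group means was therefore Lgr5+ basal, Lgr5- basal, luminal, with the first neighbours not separated by the test and the second separated. With each array centred on its median in place of quantile normalization, the Lgr5- to luminal difference was 0.94 with a limma adjusted p of 0.0553.

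A second Sox4 probe, nearer to background, had means of 6.36 ± 0.18, 5.95 ± 0.46 and 5.51 ± 0.64 in the same order and was detected on 3, 3 and 1 arrays. Its difference between Lgr5+ basal and luminal cells was 0.85 (limma adjusted p = 0.0490), a call that was lost in 12 of 19 alternative settings. Among these was the removal of any Lgr5+ basal array, of Lgr5- basal replicate 1 or 2 or of luminal replicate 1 or 2 (limma adjusted p from 0.0508 to 0.178). In Lgr5- basal cells it was 0.43 above the luminal mean (limma adjusted p = 0.310), and 0.79 above it without luminal replicate 3 (limma adjusted p = 0.0431).

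Sox12, a SoxC gene of broad expression, showed values of 8.41, 9.16 and 9.54 on the Lgr5+ basal arrays, 9.17, 9.58 and 9.53 on the Lgr5- basal arrays and 9.72, 9.36 and 9.98 on the luminal arrays. The groups overlapped, and the lowest value was that of the Lgr5+ array of pool 1. The Lgr5+ basal mean was 0.65 below the luminal mean (limma adjusted p = 0.0803), and with pool as a block, a fit that compares arrays within pools, the same difference had a limma adjusted p of 0.0448. It also passed with the BeadChip as a block (limma adjusted p = 0.0433) and without Lgr5+ basal replicate 3 (limma adjusted p = 0.0196). The Lgr5- basal mean was 0.26 below the luminal mean (limma adjusted p = 0.498). Of the 3 other Sox12 probes, 1 was tested, at means of 5.65 to 5.91, with no call in any comparison, 1 was detected on 2 arrays and so lay just outside the detection rule, and 1 was detected on none. The authors had set aside the tested one and the undetected one, as they had all 3 Sox11 probes and the Sox15 probe.

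Sox11, the SoxC gene of embryonic neurons, read 4.42 to 5.41 over its 3 probes and all 9 arrays, and Sox15 read 4.47 to 5.55. No such value was called detected, so nothing beyond a level under the detection limit can be given for either gene.

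Sox9, the SoxE regulator of cartilage, was, in the fit without a block, the only one of the 10 genes called higher in luminal cells. Its lead probe read 13.18, 12.91 and 12.97 on the Lgr5+ basal arrays, 12.44, 12.56 and 12.63 on the Lgr5- basal arrays and 13.86, 14.07 and 13.71 on the luminal arrays. All 3 groups were free of overlap, with Lgr5- basal lowest, Lgr5+ basal between and luminal highest. The means were 13.02 ± 0.14, 12.54 ± 0.09 and 13.88 ± 0.18 (SD, n = 3 each). Sox9 was 1.82-fold lower in Lgr5+ basal than in luminal cells (log2 difference -0.86, SE 0.17, limma adjusted p = 0.00143). It was 2.52-fold lower in Lgr5- basal than in luminal cells (log2 difference -1.33, SE 0.17, limma adjusted p = 6.49e-05). Between the basal groups it was 0.47 higher in Lgr5+ cells (95% confidence interval 0.11 to 0.84 before adjustment, limma adjusted p = 0.207), by 0.73, 0.34 and 0.35 in pools 1, 2 and 3.

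The second Sox9 probe gave the same order of group means. It read 9.40, 9.65 and 10.16 in Lgr5+ basal, 9.06, 9.45 and 9.75 in Lgr5- basal and 11.00, 10.89 and 11.17 in luminal arrays. Here the basal groups overlapped and the luminal arrays stood above both. The differences from the luminal mean were -1.28 (limma adjusted p = 0.00110) and -1.59 (limma adjusted p = 0.000252), and between the basal groups the difference was 0.31 (limma adjusted p = 0.591). The basal to luminal calls of both Sox9 probes were kept in every alternative setting run.

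Sox10, the SoxE regulator of neural crest and glia, went the opposite way from Sox9 between the layers. It read 11.96, 11.76 and 12.05 on the Lgr5+ basal arrays, 12.01, 11.92 and 11.98 on the Lgr5- basal arrays and 11.42, 11.24 and 10.62 on the luminal arrays. The basal arrays overlapped each other within a narrow range, and the luminal arrays lay below all of them. Sox10 was 1.77-fold higher in Lgr5+ basal than in luminal cells (log2 difference 0.83, SE 0.21, limma adjusted p = 0.00784) and 1.83-fold higher in Lgr5- basal cells (log2 difference 0.87, SE 0.21, limma adjusted p = 0.00634). Between the basal groups the difference was -0.05 (95% confidence interval -0.51 to 0.42, limma adjusted p = 0.954). The luminal array of pool 3 was the lowest. On BeadChip 1 the Lgr5+ to luminal difference was 0.53 (limma adjusted p = 0.0695), and on BeadChip 2, with 1 array a group and so no test, it was 1.42. With median centring both Sox10 calls were lost, at a limma adjusted p of 0.0572 in Lgr5+ and 0.052 in Lgr5- basal cells.

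**Figure D2:**
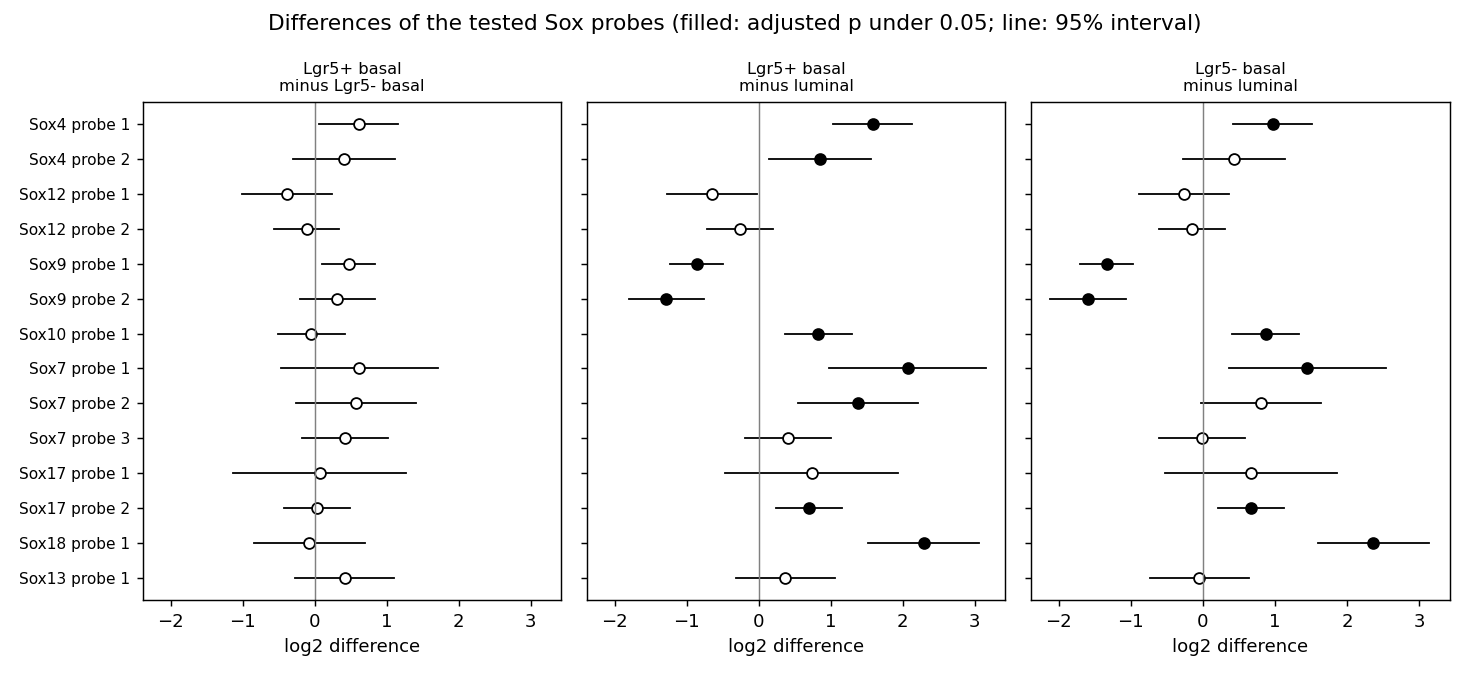
Log2 difference between group means (horizontal axis) of the 14 tested Sox probes in each of the 3 comparisons, with 95% confidence intervals before adjustment and filled points where limma's adjusted p was under 0.05. No point is filled in Lgr5+ against Lgr5- basal cells, while against luminal cells both Sox9 probes lie on the luminal side and the filled points of Sox4, Sox10, Sox7, Sox17 and Sox18 on the basal side.

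Since Sox10 is also a gene of Schwann cells, the markers of that cell type are set beside it. Of 9 Schwann cell markers, Cdh19, S100b, Foxd3 and L1cam were detected on no array, and 5 were tested. The summed level of the tested markers was 407.3 to 637.6 on the Lgr5+ basal arrays, 486.1 to 621.2 on the Lgr5- basal arrays and 745.2 to 834.2 on the luminal arrays (linear intensity units). The median log2 level of the same markers ran the other way, at 6.07 to 6.93, 6.61 to 6.88 and 4.90 to 5.76, and the brightest of them on the luminal arrays was Mbp (9.15 to 9.43). Among them Ngfr, a neurotrophin receptor that basal mammary cells also express, was higher in Lgr5+ basal than in luminal cells (log2 difference 2.55, limma adjusted p = 5.11e-06), while Mbp, a myelin protein, was lower (log2 difference -2.18, limma adjusted p = 2.32e-05). So 4 of the 9 markers were at background on every array, and the tested ones did not run in 1 direction. The part of Schwann cell RNA in the Sox10 difference was not tested beyond these values.

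Genes known as targets of Sox10 in glia and melanocytes were then counted. Of 16 listed, 8 were tested, and against luminal cells 7 were higher and 1, Mbp, lower in each basal group, while 0 of 8 were called between the basal groups, where 1.01% of all genes were. The median difference of the 8 was 2.73 in Lgr5+ and 2.82 in Lgr5- basal cells, beside -0.02 and -0.03 over the 12148 tested genes, of which 48.4% and 43.8% were called. Pmp22, a peripheral myelin protein, was 10.93, 10.96 and 11.20 on the Lgr5+ basal arrays, 11.43, 11.51 and 11.55 on the Lgr5- basal arrays and 6.91, 7.58 and 6.83 on the luminal arrays (Lgr5+ against luminal, log2 difference 3.92, limma adjusted p = 1.3e-07). Mia, a secreted protein of cartilage and melanoma, was higher by 2.83 and 2.77 in Lgr5+ and Lgr5- basal cells (limma adjusted p = 4.09e-07 and 4.54e-07). Egr2, the transcription factor that works with Sox10 at myelin genes, was higher by 3.39 and 3.33 (limma adjusted p = 3.84e-06 and 4.41e-06). Pou3f1, a partner of Sox10 in Schwann cells, was detected on no luminal array and was at least 5.41-fold and 4.79-fold higher in the basal groups (limma adjusted p = 2.06e-06 and 3.29e-06). As it was tested through the basal arrays alone, this direction was built into its selection. The list was drawn up with results of these arrays known, and its count is a description.

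Genes known as cartilage targets of SoxE proteins were mostly not detected: 2 of 12 were tested. Col9a2, a chain of collagen IX, was higher by 4.35 and 4.38 in Lgr5+ and Lgr5- basal than in luminal cells (limma adjusted p = 8.42e-08 and 8.04e-08). Its partner chain Col9a1 had means of 5.38 ± 0.28 in Lgr5+ basal, 7.89 ± 0.13 in Lgr5- basal and 5.73 ± 0.56 in luminal arrays (SD, n = 3 each). Col9a1 was thus highest in the Lgr5- basal arrays, and it differed between the basal groups (log2 difference -2.52, limma adjusted p = 0.00302).

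The SoxF genes Sox7, Sox17 and Sox18, factors of blood and lymph vessel endothelium, were low in signal and higher in basal than in luminal arrays where they were called. Sox18 read 7.32, 8.13 and 6.48 on the Lgr5+ basal arrays, 7.56, 7.51 and 7.09 on the Lgr5- basal arrays and 4.73, 5.26 and 5.07 on the luminal arrays, where it was detected on none. The basal groups overlapped, and each basal array lay above each luminal array. Sox18 was at least 3.44-fold higher in Lgr5+ basal (limma adjusted p = 0.000283) and at least 3.63-fold higher in Lgr5- basal cells (limma adjusted p = 0.000234) than in luminal cells. Both calls were kept in all 20 alternative settings. These bounds hold for background-corrected values: without that correction the log2 differences were 0.85 and 0.85 (limma adjusted p = 0.00351 and 0.00364). Between the basal groups the Sox18 difference was -0.08 (95% confidence interval -0.85 to 0.69, limma adjusted p = 0.954). Since this probe passed the detection rule through the basal arrays alone, a difference from the luminal group was built into the choice of tested probes.

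The lead probe of Sox7 read 7.54, 8.59 and 6.72 in Lgr5+ basal, 7.47, 6.74 and 6.78 in Lgr5- basal and 6.33, 5.67 and 4.63 in luminal arrays. The Lgr5+ array of pool 2 was the highest of the 9, and the luminal array of pool 3, where Sox7 was not detected, the lowest. Sox7 was higher in Lgr5+ basal than in luminal cells (log2 difference 2.07, SE 0.49, limma adjusted p = 0.00527) and 2.74-fold higher in Lgr5- basal cells (log2 difference 1.45, SE 0.49, limma adjusted p = 0.0350), the second of which was lost in 8 of 20 alternative settings. It was lost without any 1 of the Lgr5- basal arrays and without luminal replicate 2 or 3 (limma adjusted p from 0.0550 to 0.127). A second Sox7 probe, detected on no luminal array, was at least 1.57-fold higher in Lgr5+ basal cells (limma adjusted p = 0.0112) and did not pass in Lgr5- basal cells (log2 difference 0.80, limma adjusted p = 0.112, and 0.0241 without Lgr5+ basal replicate 2). Like Sox18, this probe was tested through the basal arrays alone. The third, detected on 3 arrays, 1 in each group, lay just inside the detection rule and was called in no comparison.

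Sox17 had 2 probes near background. The lead probe read 5.60, 7.12 and 4.77 in Lgr5+ basal, 5.97, 5.97 and 5.36 in Lgr5- basal and 4.52, 6.01 and 4.76 in luminal arrays, with overlap among all groups and no call. The second read 5.50, 5.81 and 5.25, then 5.62, 5.44 and 5.41, then 4.90, 5.08 and 4.48 in the same order of groups, and was detected on 1, 3 and 0 arrays, so that it too was tested through the basal arrays alone. Its differences from the luminal group, 0.70 and 0.67, passed the test (limma adjusted p = 0.0170 and 0.0232), but its basal means lay at about the lowest level called detected, so no lower bound above 1 can be given. These calls were lost in 4 and 6 of 19 alternative settings. The first was lost without Lgr5+ basal replicate 2 or luminal replicate 3 (limma adjusted p = 0.0749 and 0.0616), and the second without Lgr5- basal replicate 1 or 2 or luminal replicate 3 (limma adjusted p from 0.0535 to 0.0839).

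Endothelial markers varied across the arrays along with the SoxF genes. Of 18 such markers 15 were tested, and their median log2 level was 7.99, 9.31 and 6.94 on the Lgr5+ basal arrays, 8.20, 7.81 and 7.78 on the Lgr5- basal arrays and 6.52, 7.51 and 6.18 on the luminal arrays. Lgr5+ basal replicate 2 stood highest for these markers, as it did for the lead probes of Sox7, Sox17 and Sox18, and Lgr5+ basal replicate 3 was the lowest basal array for the markers and for each of these probes. The summed linear level of the markers was 2624 to 11660 in Lgr5+ basal, 5288 to 6588 in Lgr5- basal and 2112 to 3612 in luminal arrays. Against luminal cells 8 of the 15 markers were higher in Lgr5+ basal cells, and 8 were higher and 1, Vwf, lower in Lgr5- basal cells, while none was called between the basal groups. Over all tested genes 48.4% and 43.8% were called in these 2 comparisons with luminal cells, and 1.01% between the basal groups. Cdh5, the VE-cadherin of endothelial junctions, was higher by 1.93 in Lgr5+ and 1.59 in Lgr5- basal cells (limma adjusted p = 0.00389 and 0.0125). The markers left untested were Kdr and Erg, detected on no array, and Tie1, detected on 1. All tested markers except Cdh5 and Aplnr were detected on all 9 arrays. The part of endothelial RNA in the SoxF differences was not tested.

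Without Lgr5+ basal replicate 2, the Sox7 lead probe was 1.58 above the luminal mean (limma adjusted p = 0.0210) and 0.13 above the Lgr5- basal mean, where it had been 0.62 with all arrays. Sox18 was then 1.88 above the luminal mean (limma adjusted p = 0.000592). The second Sox17 probe was 0.56 above it and no longer passed (limma adjusted p = 0.0749).

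**Figure D3:**
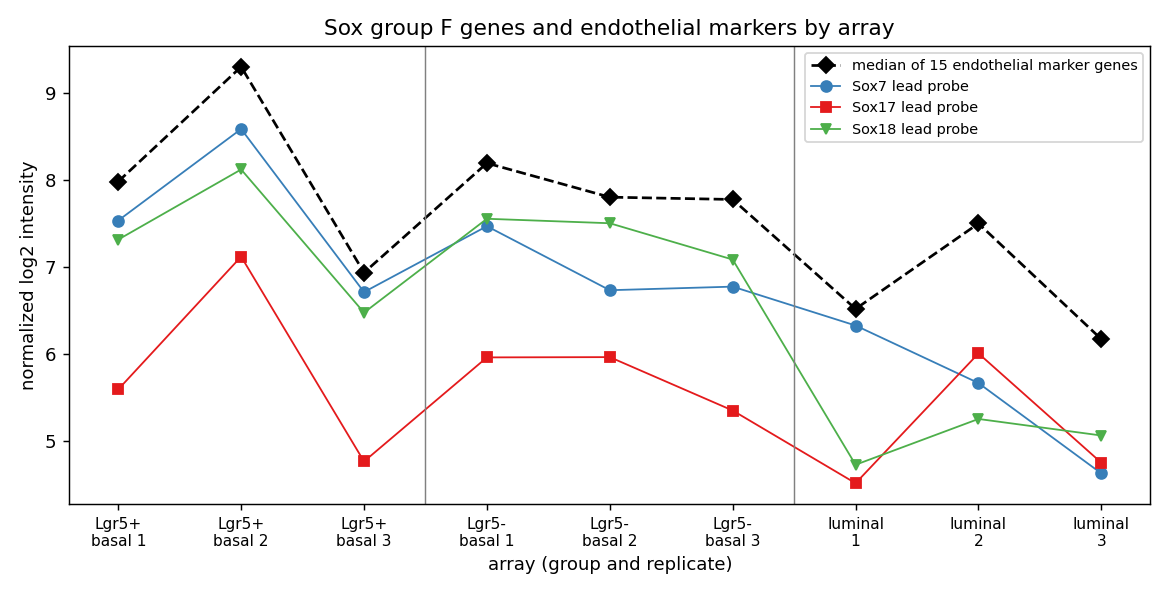
Normalised log2 intensity (vertical axis) of the lead probes of Sox7, Sox17 and Sox18 and the median of 15 endothelial markers on each of the 9 arrays (horizontal axis). Only the shapes across arrays can be compared, since probes differ in brightness: all 4 lines peak at Lgr5+ basal replicate 2.

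Genes known as vascular targets of SoxF proteins were counted too. Of 6 listed, 4 were tested. Cdh5, Cldn5 and Vcam1 were higher in Lgr5+ basal than in luminal cells and Notch1 was lower. In Lgr5- basal cells Cldn5 did not pass (log2 difference 1.53, limma adjusted p = 0.0740). Of all tested genes, 48.4% were called in Lgr5+ basal and 43.8% in Lgr5- basal against luminal cells. Vcam1, an adhesion molecule that basal mammary cells also express, was 11.72, 11.17 and 11.60 in Lgr5+ basal, 11.36, 10.64 and 10.84 in Lgr5- basal and 6.45, 6.66 and 4.75 in luminal arrays. Cdh5 and Cldn5 are also in the endothelial list.

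Sox13, the SoxD gene, read 7.68, 8.03 and 8.20 in Lgr5+ basal, 7.61, 7.50 and 7.56 in Lgr5- basal and 7.97, 6.76 and 8.09 in luminal arrays. The Lgr5+ values lay just above the Lgr5- values, and the luminal values spanned both, with the array of pool 2 far below the other two. The difference between the basal groups was 0.42 (95% confidence interval -0.27 to 1.11, limma adjusted p = 0.587), and the differences from luminal cells were 0.37 (limma adjusted p = 0.359) and -0.05 (limma adjusted p = 0.919).

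Of 9 other Sox genes listed, 4 were tested, and all 4 were called in both comparisons with luminal cells and none between the basal groups, where 48.4%, 43.8% and 1.01% of all tested genes were called. Each gene is given by its brightest tested probe. Of the probes of other Sox-named genes 7 were tested, from 4 genes, and the further ones are not described. Sox8, the third SoxE gene, was higher by 2.05 in Lgr5+ and 2.24 in Lgr5- basal cells (limma adjusted p = 3.68e-06 and 1.82e-06), as its relative Sox10 was. Sox5, a SoxD gene that works with Sox9 in cartilage, was higher by 1.76 and 1.96 (limma adjusted p = 0.00345 and 0.00193). Sox21, a SoxB repressor, was detected on no luminal array and was at least 2.42-fold and 1.82-fold higher (limma adjusted p = 3.17e-05 and 0.000346). Sox14, also a SoxB repressor, was detected on all 3 luminal arrays and no basal array, and was at least 2.01-fold and 2.14-fold higher in luminal cells (limma adjusted p = 0.000933 and 0.000664). Sox21 entered the tested set through the basal arrays alone and Sox14 through the luminal arrays alone, so the direction of both was built into their selection. Sox1, Sox2, Sox3 and Sox30 were detected on no array and Sox6 on 1.

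Among genes known as targets of SoxC proteins, 2 of 4 were tested. Tead2, a DNA-binding partner of the Hippo pathway factor Yap, was lower by 2.30 in Lgr5+ and by 2.39 in Lgr5- basal cells than in luminal cells (limma adjusted p = 1.44e-05 and 1.04e-05), the opposite direction to Sox4. Ezh2, the methyltransferase of Polycomb complexes, was called in neither comparison. The neuronal targets Tubb3 and Dcx were detected on no array.

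**Figure D4:**
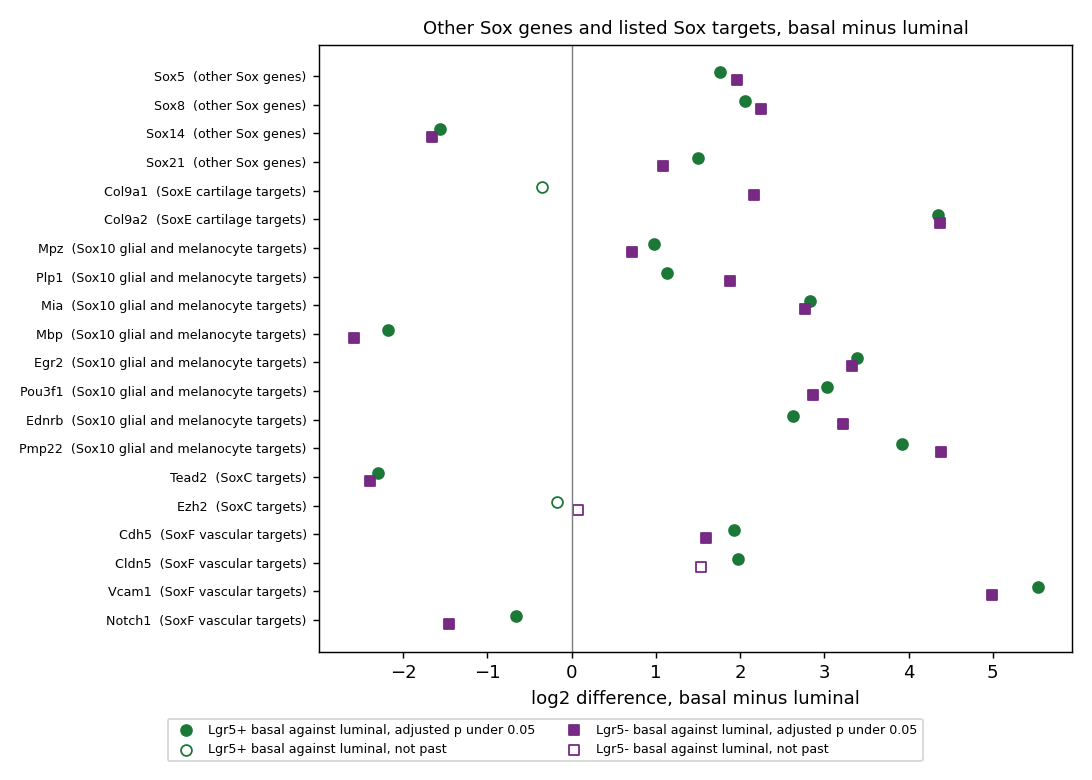
Log2 difference, basal minus luminal (horizontal axis), for the tested genes among other Sox genes and listed targets of SoxE, Sox10, SoxC and SoxF proteins, for Lgr5+ basal cells (circles) and Lgr5- basal cells (squares), filled where limma's adjusted p was under 0.05. Of the 8 Sox10 targets 7 lie on the basal side, and Mbp, Tead2, Sox14 and Notch1 lie on the luminal side in both comparisons.

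The genes whose log2 values ran most like each Sox lead probe over the 9 arrays were found by Pearson's r among the lead probes of 10387 tested genes with a RefSeq name, as a description: the 9 arrays fall into 3 groups and 3 pools, so any gene with the same group means scores high. Among the genes nearest to Sox4 were Inafm1 (r = 0.992) and Ckap5. Sox9 ran most like Naglu (r = 0.989), Ulk3 and Tspan17, and Sox10 most like Zbtb7c (r = 0.992), Slc19a1 and Snhg12. Sox12 was nearest to Mrpl43 (r = 0.965), Mcts1 and Tomm40, and Sox13 to Dgcr2 (r = 0.984), Vps16 and Atxn2. In group F, Sox7 was nearest to the endothelial junction gene Cdh5 (r = 0.959), then Snai1 and Mmrn2, Sox17 to Arap3 (r = 0.965), Gimap6 and Ifit3, and Sox18 to Cnksr3 (r = 0.993), Nuak1 and Gja4, a connexin of arterial endothelium.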

How the data were processed

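Total RNA of 9 sorted samples, with every group in each of 3 pools, was hybridized to Illumina mouse BeadChips, 3 arrays a group. The raw deposited table held an intensity per probe, not background-corrected or normalized, and detection columns, a fraction per the file headers called a p-value, which rose with signal on every array (Spearman 0.981 to 0.991), so a value above 0.99 was read as detected. A deposited flag marked 26391 of 45281 probes that the authors meant to filter for lack of expression or poor annotation, per the file headers. The second deposited table held the authors' normalized log2 values, which the analysis used. GenomeStudio and limma appear as tools in the submitters' processing notes, without versions. Background correction by normexp (offset 16) and quantile normalization of the raw table came within 0.0284 of these values.

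Group means were fitted to the 17712 tested probes on all 9 arrays (limma 3.58.1, R 4.3.3, lmFit and eBayes, two-sided, Benjamini-Hochberg over probes, threshold 0.05). Where a probe was detected on no array of the lower group, its values there were raised to the lowest level of a detected probe on the same array and the fold is written as at least N. Differences of gene lists use the probe of a gene with the highest mean. Symbols were taken from RefSeq. The labels state neither the mice per pool nor the gates.

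The replicate number is the pool of the labels. After removal of group means, arrays of the same pool correlated with r of 0.231 to 0.403 (Lgr5+ with Lgr5- basal), 0.0829 to 0.109 (Lgr5+ basal with luminal) and 0.11 to 0.367 (Lgr5- basal with luminal), against at most 0.0423 between pools. The pool as a block was therefore run as an alternative, as were other normalizations, detection rules, 1 probe per gene, the BeadChip as a block or alone, only the compared groups, and each array left out. The Sox members and the gene lists were chosen with earlier results of these data known. All probes of the members were described, with the 3 genes most like each lead probe (1 of them is not reported here) and up to 4 genes with the smallest p in each list. Genes named beyond this, such as Vwf and undetected markers, were chosen after their values were seen.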

Additional observations from a re-analysis of the deposited data

How the results depend on the processing

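Over 20 alternative settings a comparison, no called Sox difference changed its sign, and the count of Sox probes that passed between Lgr5+ and Lgr5- basal cells was 0 in all of them. Values that were uncalled in both settings were not read for sign. With median centring in place of quantile normalization, 4 in place of 7 Sox probes passed in Lgr5- basal against luminal cells. Over all probes it left 55 in place of 171 between the basal groups and 4967 in place of 7538 in Lgr5- basal against luminal cells. The cause was not tested. With 1 lead probe per gene, 5 in place of 9 Sox probes passed in Lgr5+ basal against luminal cells, since second probes of Sox4, Sox9, Sox7 and Sox17 are then not counted. On BeadChip 1 alone 917 probes passed between the basal groups, and with only the arrays of these groups 92. Leaving out 1 array gave 48 (without Lgr5- basal replicate 1) to 1292 (without Lgr5+ basal replicate 3) between the basal groups, with 56 and 65 without Lgr5+ basal replicates 1 and 2 and 63 and 107 without Lgr5- basal replicates 2 and 3. The Sox counts then ran from 7 to 9 in Lgr5+ basal and from 5 to 8 in Lgr5- basal against luminal cells. With pool as a replicate block, 0, 10 and 7 Sox probes and 183, 9226 and 8206 of all probes passed in Lgr5+ against Lgr5- basal, Lgr5+ basal against luminal and Lgr5- basal against luminal cells, and Sox12 was the 1 Sox call that changed. Without background correction 0, 7 and 5 Sox probes passed, and the dim Sox18 probe differed from luminal cells by 0.85 and 0.85 in place of 2.29 and 2.37. Probes near background, those of Sox17 and the second probes of Sox4 and Sox7, limit what can be said of their size.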

Other observations

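Partners of Sox proteins in Wnt signalling were also measured. Of 5 listed genes of beta-catenin and the Tcf/Lef family, 3 were tested. Between the basal groups none of these was called, where 1.01% of all tested genes were. Tcf7 read 7.13, 7.19 and 7.55 on the Lgr5+ basal arrays and 7.62, 7.49 and 7.42 on the Lgr5- basal arrays, and was detected on no luminal array. It was at least 3.40-fold and 3.96-fold higher in the basal groups than in luminal cells (limma adjusted p = 4.54e-07 and 2.57e-07), a direction built into its selection, since it was tested through the basal arrays alone. Ctnnb1, which encodes beta-catenin, and Tcf7l2 differed from the luminal mean by -0.15 and 0.29 in Lgr5+ basal cells and did not pass (limma adjusted p = 0.475 and 0.242). Lef1 was detected on no array.

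Among markers of other cell types of the gland, 8 of 10 tested fibroblast markers were higher in Lgr5+ basal and 6 of 10 in Lgr5- basal than in luminal cells, where 48.4% and 43.8% of all tested genes were called in either direction. Between the basal groups 1 of the 10 fibroblast markers was called, where 1.01% of all tested genes were. It was Dcn, the proteoglycan decorin, which was lower in Lgr5+ cells (log2 difference -1.47, limma adjusted p = 0.00413). Of 3 tested haematopoietic markers, Cd3e and Cd68 were called higher in Lgr5+ basal and Cd3e and Lyz2 in Lgr5- basal than in luminal cells. Cd3e was detected on no luminal array and was tested through the basal arrays alone, so this direction was built into its selection. Cd3e was also lower in Lgr5+ than in Lgr5- basal cells (log2 difference -0.88, limma adjusted p = 0.0384), where the 2 other tested haematopoietic markers did not pass.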
